A study of Mus musculus with 18 samples.

Results

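The respiratory chain of the inner mitochondrial membrane passes electrons from NADH and succinate to oxygen and uses the proton gradient so formed to make ATP. Complex I (NADH dehydrogenase) and complex II (succinate dehydrogenase) feed electrons into the chain, complex III (the cytochrome bc1 complex) and complex IV (cytochrome c oxidase) pass them on, and complex V (ATP synthase) makes ATP. The mitochondrial genome encodes a few core subunits, and all the others are nuclear genes. Naive mouse embryonic stem (ES) cells are known to combine respiration with glycolysis, whereas epiblast cells after implantation rely largely on glycolysis, and Esrrb belongs to the oestrogen-related receptors, a family of orphan nuclear receptors known for driving genes of mitochondrial energy metabolism.

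The genes described here were taken from the annotated protein-coding genes of the count table by their symbols, those starting with Nduf, Uqcr, Atp5, Cox4, Cox5, Cox6, Cox7 or Cox8 together with Sdha, Sdhb, Sdhc and Sdhd, and had 10 or more counts in every library. Of the 49671 genes of the table, 21811 were annotated as protein-coding, 93 of these had such a symbol and 87 also met the count minimum. Complex I held 36 of the 87 genes, complex II 4, complex III 8, complex IV 13 and complex V 16. The symbols also brought in 10 genes that are no subunits, namely the complex I assembly factors Ndufaf1 to Ndufaf8, Atp5s (a factor coupled to ATP synthase) and Cox7a2l, which joins complex III to complex IV in supercomplexes, so 77 of the 87 were subunits. The 6 genes under the minimum were the tissue-restricted isoforms Cox4i2, Cox6a2, Cox7b2, Cox8b and Cox8c and the paralogue Ndufa4l2. Cytochrome c1 (Cyc1) and the mitochondrially encoded subunits are part of the chain but carry other symbols.

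The study sequenced RNA from 18 samples in 6 groups of 3. E14 cells, a wild-type ES line (passage 20, strain label 12910la), were embedded in Matrigel and grown for 48 h in N2B27 medium with DMSO as the control, with 3 µM of the Gsk3 inhibitor CHIR99021 (CH), with 3 µM CHIR99021 and 0.4 µM of the Mek inhibitor PD0325901 (2i), or with 20 ng/ml Activin A together with 12 ng/ml Fgf2 (Fgf2/Activin). In a separate experiment, ES cells of passage 25 with both Esrrb alleles floxed and a tamoxifen-inducible Cre, of a background labelled Acr-EGFP transgenic, were left untreated (Esrrb floxed) or received 4OHT for 1 day (Esrrb null), and both groups then grew for 24 h in Matrigel with 3 µM CHIR99021. All lines had been kept in 2i with Lif beforehand. Every Esrrb null library had 4OHT and no floxed library had it, so 4OHT and the deletion cannot be told apart, and the experiments differ in line, passage, time in culture and possibly sequencing run, so that levels were set side by side between them but not tested.

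The libraries held 19915222 to 37158661 counts on genes, of which the 87 genes took 1.04% to 1.37%. In every group the replicate 1 library stood apart. The chi-square of its counts against replicates 2 and 3 was 12.1 to 69.2 per gene, and that of replicate 2 against replicate 3 was 1.44 to 8.75. The counts over all 87 genes are therefore also given with the replicate number as a block and, for most comparisons, without the replicate 1 libraries, whereas counts by complex and by list are those without a block. Esrrb itself, the deleted gene, measured 142, 109.9 and 109 CPM (counts relative to the library total, scaled by the trimmed mean of M values, TMM) in the Esrrb floxed libraries and 58.9, 63.8 and 59.8 in the Esrrb null libraries, which is lower in all 3 null libraries but not absent. In the wild-type cells it reached 6.87 to 30.2 CPM with DMSO, 286 to 363 with CH, 530 to 566 with 2i and 9.21 to 21.4 with Fgf2/Activin. The 6 pluripotency markers, among them Pou5f1 and Sox2, summed to 1769 to 2946.7 CPM over all libraries. The 5 fibroblast feeder markers summed to 2.26 to 49.3 CPM. Of these, Thy1 had 31 to 1797 counts per library, Col1a2 2 to 78, Col1a1 1 to 13, Col3a1 0 to 13 and Lum 0 to 5. In bulk RNA, fewer cells of a type and less RNA per cell cannot be told apart.

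Per transcript length, in CPM per kilobase of exon (RPKM, mean over the 18 libraries), ATP synthase genes were the most abundant. Atp5b, the catalytic beta subunit, stood at 464 RPKM and the alpha subunit gene Atp5a1 at 435 RPKM. Cox8a led complex IV at 321 RPKM, Uqcr10 complex III at 163 RPKM, Sdhd (a membrane anchor) complex II at 110 RPKM and Ndufs6 complex I at 98.7 RPKM, while Cox7a2l, at 102 RPKM, was far above the next of the factors, Ndufaf1, at 16.9 RPKM. At the other end, Ndufb2 of complex I stood at 1.49 RPKM, Atp5s at 2.75, the small ATP synthase subunit gene Atp5l at 6.43, the muscle isoform Cox7a1 at 6.67, Sdhc at 28.4 and Uqcrq at 64.0 RPKM. These RPKM were scaled over all 18 libraries together, whereas CPM were scaled within each experiment. In CPM, Sdhd measured 123 to 129 with DMSO, 115 to 119.5 with CH, 125 to 135 with 2i, 117 to 124 with Fgf2/Activin, 159 to 181 in Esrrb floxed and 151 to 152 in Esrrb null cells. Ndufb2 measured 6.24 to 7.17, 6.24 to 6.71, 7.62 to 8.35, 5.93 to 6.78, 11.3 to 14.8 and 9.28 to 11.1 CPM in the same order, and Atp5s 4.85 to 9.37, 5.32 to 8.41, 4.50 to 7.87, 4.97 to 7.67, 3.98 to 4.46 and 4.54 to 5.26 CPM. The wild-type ranges of Atp5s overlapped, its replicate 1 library being the highest in each. Subunits that enter a complex in equal numbers did not share 1 RNA level per length. The exon length of a gene can include rarely used exons, which lowers its RPKM.

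Summed over its subunit genes, every complex had its highest wild-type mean with 2i. Complex I summed to 1642 ± 41.1 RPKM with DMSO, 1743 ± 118 with CH, 1854 ± 90.7 with 2i and 1642 ± 66.0 with Fgf2/Activin (mean ± SD, n = 3 per group). Complex IV summed to 1561 ± 67.4, 1723 ± 110, 1937 ± 131 and 1557 ± 64.2 RPKM in the same order, and complex V to 1829 ± 36.1, 1912 ± 33.1, 2121 ± 81.8 and 1823 ± 34.3 RPKM. Complex II, the smallest, lay between 226 ± 7.76 RPKM with Fgf2/Activin and 274 ± 16.8 with 2i. In the Esrrb experiment each complex was lower in all 3 null libraries than in any floxed library. The largest difference in RPKM was that of complex V, from 2052 ± 96.9 to 1521 ± 37.3 RPKM, with complex III going from 872 ± 81.4 to 646 ± 31.4, complex IV from 1928 ± 213 to 1523 ± 101, complex I from 1679 ± 108 to 1376 ± 56.7 and complex II from 290 ± 12.6 to 252 ± 1.88. The mitochondrially encoded subunits did not separate in this way, with 16477 to 27446 RPKM in the floxed and 15197 to 20442 RPKM in the null libraries.

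**Figure D1:**
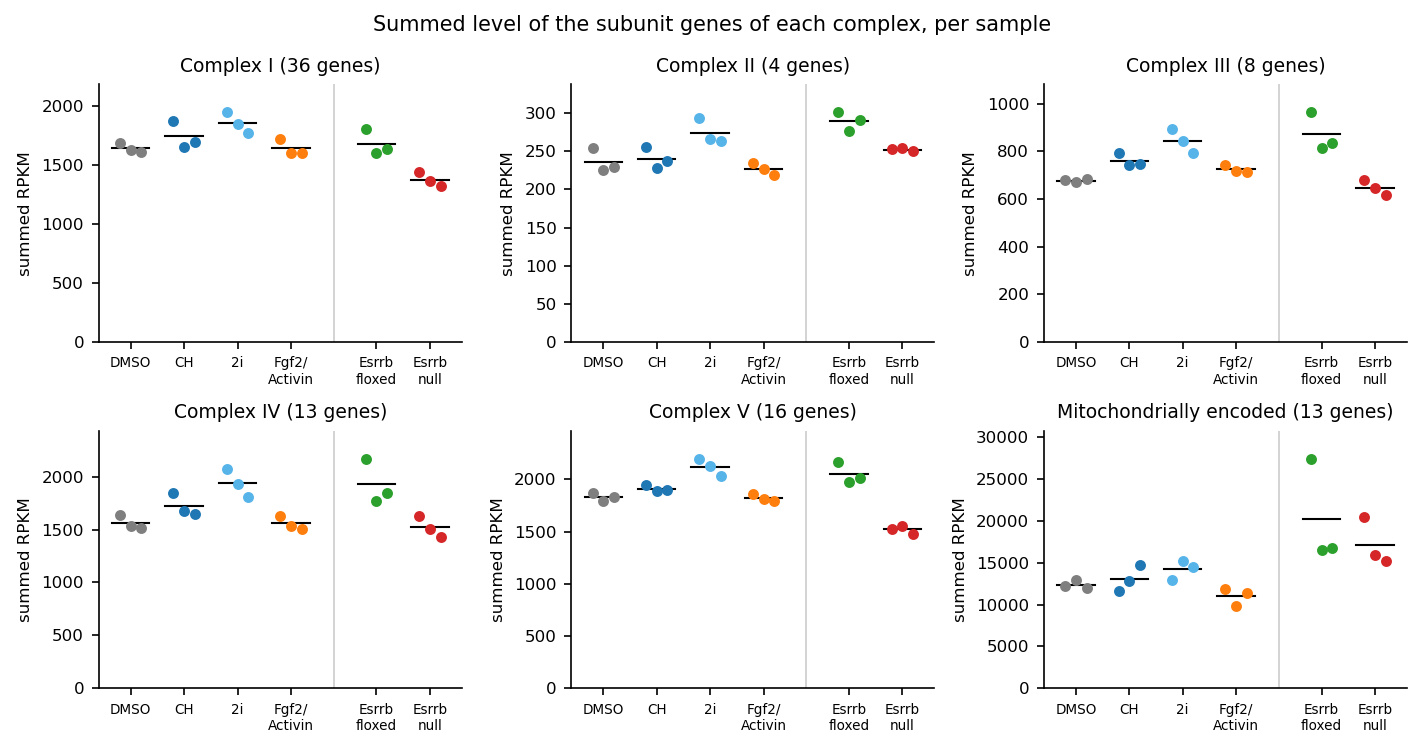
Summed RPKM (vertical axes, from 0) of the subunit genes of complexes I to V and of the mitochondrially encoded subunits in each of the 18 libraries, by group, with a bar at the group mean; a vertical line parts the wild-type from the Esrrb experiment. The 3 Esrrb null libraries lie below the 3 floxed libraries for complexes I to V (complex V: 1481 to 1555 against 1977 to 2161 RPKM) and overlap with them for the mitochondrially encoded subunits.

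Because Esrrb belongs to the receptors that bind the sequence TCAAGGTCA, the promoters of the genes were searched for it and for its shorter core AAGGTCA, on both strands, the core being contained in the longer element. RefSeq promoter windows (GRCm38.p6, 250 bases before to 50 after the start) were found for 74 of the 87 genes. The full element was in 2 of these 74 (2.70%, against 0.466% of the promoters of all 27025 genes) and the core in 8 (10.8% against 5.38%). Of the 39 genes with a promoter that were lower in Esrrb null cells, 5 held the core, and of the 35 others 3 did. The 4 stretches that lie before the start and outside the gene's own exons are given here, read along the gene from 5′ to 3′, with the searched letters in capitals. They are shown because they hold the searched letters before the start, and only these windows were searched.
Atp5g3 (chr2:73911344-73911403, minus strand, full element beginning 52 bases before the start): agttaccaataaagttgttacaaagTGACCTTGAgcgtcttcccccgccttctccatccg
Ndufs5 (chr4:123718382-123718436, minus strand, core 228 bases before the start): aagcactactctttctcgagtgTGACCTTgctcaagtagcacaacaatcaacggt
Ndufb2 (chr6:39592359-39592416, plus strand, core 181 bases before the start): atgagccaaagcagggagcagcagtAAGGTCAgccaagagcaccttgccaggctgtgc
Atp5l (chr9:44920743-44920780, minus strand, core 13 bases before the start): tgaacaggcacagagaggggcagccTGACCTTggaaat

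The annotation places no exon over the stretches of Atp5g3, Ndufs5 and Ndufb2, and an exon of the antisense gene Gm30934 over that of Atp5l. In Atp5g3, Ndufs5 and Atp5l the element reads on the strand opposite to the gene. The remaining matches were in Sdhd (full element), Atp5e and Atp5k, all after the start, and in Ndufb4. Other letters were more frequent in these promoters than in all promoters: GCGCATGC, the core of the NRF1 motif, was in 12 of 74 (16.2% against 3.05%), CCGGAAG, bound by ETS factors such as Gabpa, in 18 (24.3% against 9.93%), and ATGGCGG, of the YY1 motif, in 12 (16.2% against 4.69%). The 27025 genes behind these shares include genes that were too low to be tested in these cells, and promoters of expressed genes alone were not counted. NRF1 and GABP are the factors for which promoters of respiratory genes are best known. Among the 39 genes lower in Esrrb null cells 5 held the NRF1 letters, 10 the ETS letters and 7 the YY1 letters, and among the 35 others 7, 8 and 5 did.

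The comparison of CH with DMSO asked what Gsk3 inhibition did to these genes in cells that otherwise leave the naive state. A minority of the genes rose, in every complex but complex II, and few fell. With edgeR's quasi-likelihood test and Benjamini-Hochberg adjustment over 16413 genes, 17 of the 87 genes were higher with CH at an adjusted p below 0.01 and 2 were lower, whereas 13.7% of all genes tested were higher and 15.3% lower. That makes 19.5% of these genes higher and 2.30% lower. By the study's own threshold, which adds a change of more than 2-fold, none of the 87 genes was called, beside 17.7% of all genes. With the replicate block 28 were higher and 7 lower (21.8% and 23.5% of all genes), and without the replicate 1 libraries 31 and 8 (26.2% and 26.6%), so the number of calls depends on how the replicate 1 libraries are handled. The median log2 fold change was 0.10 over these genes and -0.002 over all genes. The share of lower genes was thus further from that of all genes than the share of higher genes was. For 35 of the 87 genes every CH library lay above every DMSO library, and for 7 below. Of all genes 24.5% and 25.2% were so, and separation of single genes is to be read beside these shares.

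In complex I, 5 of 36 genes rose with CH and none fell. Ndufa12, an accessory subunit, measured 48.4, 49.1 and 54.2 CPM with DMSO and 76.2, 73.0 and 70.0 with CH, a log2 fold change of 0.53 ± 0.07 (SE; edgeR adjusted p = 0.00013). Ndufa3, a small membrane-arm subunit, went from 21.5, 20.6 and 18.1 to 34.9, 32.1 and 26.2 CPM (0.63 ± 0.13, edgeR adjusted p = 0.0025). The DMSO and CH libraries did not overlap for either gene. Ndufb6, Ndufs6 and Ndufa10 rose by less, with log2 fold changes of 0.29, 0.27 and 0.21. Ndufs6 measured 81.5, 78.5 and 79.3 CPM with DMSO and 102, 91.4 and 95.2 with CH, and Ndufa10 101, 109 and 107 against 123, 123 and 121 CPM. Again the groups did not overlap, although Ndufs6 and Ndufa10 lost the call when any 1 of the 6 libraries was left out, Ndufa3 without CH replicate 2 or DMSO replicate 3. Complex II had no call among its 4 genes. Sdha, the flavoprotein that oxidises succinate, passed only with the block, at a log2 fold change of 0.27 (adjusted p = 0.0011 with the block and 0.025 without).

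Complex III moved in both directions. Uqcrb, an accessory subunit, measured 60.5, 57.8 and 55.7 CPM with DMSO and 95.9, 82.2 and 81.4 with CH (log2 fold change 0.58 ± 0.09, edgeR adjusted p = 0.0006). Uqcrq, another small accessory subunit of the same complex, was at 146, 146 and 154 CPM with DMSO and 119, 122 and 117 with CH (-0.31 ± 0.07, edgeR adjusted p = 0.0031). The groups did not overlap for either, so 2 subunits present in equal number in the complex changed in opposite directions, although the fall of Uqcrq lost its call without CH replicate 3 or DMSO replicate 3. The core protein gene Uqcrc1 (0.45) and Uqcr10 (0.39) also rose, the latter from 75.2, 74.8 and 78.8 to 108, 95.5 and 97.0 CPM. In complex IV, 5 of 13 rose and none fell. Cox7a2, the form of subunit VIIa used in most tissues, changed most, from 73.1, 78.7 and 74.2 CPM to 125, 108 and 114 (0.62 ± 0.08, edgeR adjusted p = 8.8e-05), and Cox7b (0.35), Cox4i1 (0.26), Cox6b1 (0.25) and Ndufa4, once assigned to complex I (0.22), followed. Cox7b measured 126, 117 and 113 CPM with DMSO and 167, 143 and 145 with CH, and Cox4i1 244, 241 and 237 against 284, 287 and 295 CPM. Cox6b1 went from 116, 109 and 113 to 139.8, 135 and 127 CPM and Ndufa4 from 137, 139 and 142 to 169, 156 and 159 CPM. For all 4 genes each CH library lay above each DMSO library. Leaving out any library ended the call of Ndufa4, any but CH replicate 3 that of Cox6b1, and CH replicate 1 or DMSO replicate 2 or 3 that of Cox7b.

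Of the 16 complex V genes, 2 rose, Atp5mpl, which encodes a small proteolipid (0.40; 45.2, 44.5 and 48.1 against 63.2, 61.0 and 58.2 CPM), and Atp5j, a peripheral stalk subunit (0.25; 109, 115 and 113 against 129, 132 and 141 CPM). The Atp5j exons share 12.7% of their length with Gabpa, itself higher with CH (0.35). The counting took no account of strand, so reads in the shared stretch could not be told apart by it. The Atp5j call needed every library except CH replicate 1. The assembly factors held the largest change of all 87 genes. Ndufaf4 measured 25.0, 34.1 and 39.1 CPM with DMSO and 54.8, 71.0 and 70.2 with CH (1.00 ± 0.18, edgeR adjusted p = 0.001), a log2 value just under the 2-fold threshold. Ndufaf5 rose by 0.61, from 13.0, 12.3 and 12.8 to 22.2, 18.7 and 17.3 CPM, and Ndufaf7, a methyltransferase that acts on complex I during assembly, fell by 0.63 on the log2 scale, from 48.3, 37.7 and 37.2 to 32.4, 24.0 and 23.0 CPM (edgeR adjusted p = 0.0094). The call of Ndufaf7 was lost when any 1 of 5 of the 6 libraries was left out. Ndufaf7 and Ndufaf4 separated the groups without overlap.

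In 2i against Fgf2/Activin, which share no library with CH and DMSO, genes of all complexes rose. Of the 87 genes 35 were higher with 2i and 1 was lower (40.2% and 1.15%), against 17.8% and 19.9% of all 16413 genes tested. The share of rising genes was thus more than that of all genes, while the median log2 fold change stayed small, at 0.23 against 0.002 over all genes. Among the 7504 genes with a mean of 20 CPM or more, where 21.4% were higher, 34 of 80 of the respiratory chain genes were. The replicate block gave 49 higher and 3 lower (25.9% and 27.5% of all genes), and leaving out the replicate 1 libraries gave 51 and 5 (29.2% and 30.3%). Under upper-quartile scaling, which moved the median of all genes by -0.096, 19 were higher and 3 lower, beside 14.4% and 23.0% of all genes. Only Cox6b2 exceeded 2-fold, as 23.5% of all genes did. For 50 of the 87 genes every 2i library lay above every Fgf2/Activin library, and for 6 below. Of all genes 31.1% and 32.0% were so, the background for genes described below as not overlapping.

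**Figure D2:**
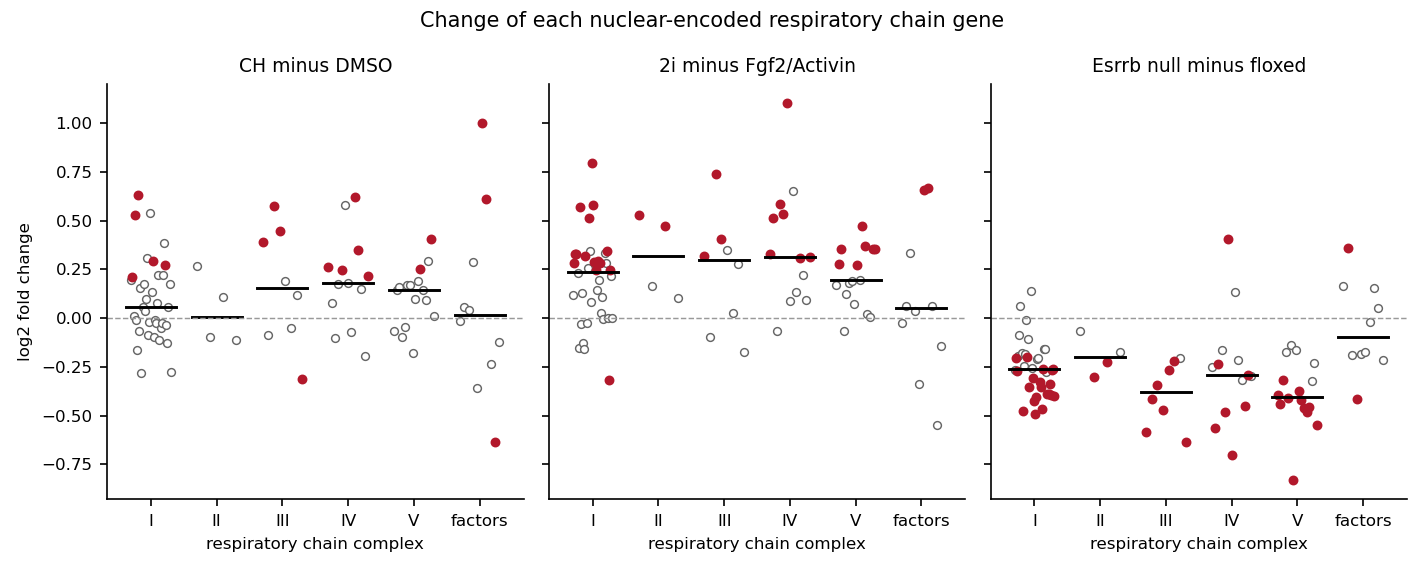
log2 fold change (vertical axis) of each of the 87 genes by complex (horizontal axis) for CH minus DMSO, 2i minus Fgf2/Activin and Esrrb null minus floxed; filled points passed an adjusted p of 0.01, open points did not, and bars mark the median of each complex. Most points lie above 0 for 2i minus Fgf2/Activin (medians of complexes I to V 0.19 to 0.32) and below 0 for null minus floxed (-0.40 to -0.20).

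Complex I contributed 14 of the 35 higher genes and the 1 lower gene. Ndufb4, an accessory subunit of the membrane arm, measured 31.7, 22.2 and 24.0 CPM with Fgf2/Activin and 52.1, 44.6 and 38.7 with 2i (0.80 ± 0.18, edgeR adjusted p = 0.003). Ndufb5, of the same arm, went from 56.9, 53.2 and 56.5 to 85.2, 80.5 and 83.6 CPM (0.58 ± 0.07, edgeR adjusted p = 4e-05), with less spread between libraries than Ndufb4. The Ndufb5 exons share 12.3% of their length with Mrpl47. Of its transcript 16.95% resembles another gene, whose counts were 61.2% of its own. Ndufa3 (0.57), Ndufb11 (0.51), Ndufs6 (0.35) and Ndufa9 (0.32) are also among the 14 higher genes. Ndufs8, a core iron-sulphur subunit of the peripheral arm, went the other way, from 72.8, 63.7 and 63.7 CPM with Fgf2/Activin to 52.8, 53.9 and 53.9 with 2i (-0.32 ± 0.07, edgeR adjusted p = 0.0028). For Ndufb4, Ndufb5 and Ndufs8 the libraries of the groups did not overlap. The call of Ndufb4 was lost without 2i replicate 1 or Fgf2/Activin replicate 2 or 3, that of Ndufa3 without 2i replicate 1 or 2 or Fgf2/Activin replicate 2 or 3, and that of Ndufs8 without any of the 2i libraries or Fgf2/Activin replicate 1.

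In complex II, Sdha was at 247, 246 and 239 CPM with Fgf2/Activin and 376, 347 and 335 with 2i (0.53 ± 0.09, edgeR adjusted p = 0.00036), and the membrane anchor gene Sdhc rose by 0.48, from 82.7, 76.4 and 72.1 to 116, 104 and 101 CPM, whereas Sdhb, the iron-sulphur subunit, at 0.17 ± 0.14, and Sdhd, at 0.10 ± 0.06, did not pass. Uqcrb rose most in complex III, from 56.4, 63.1 and 58.1 to 109, 99.1 and 88.0 CPM (0.74 ± 0.09, edgeR adjusted p = 7.3e-05), followed by Uqcrc1 (0.41) and Uqcr10 (0.32), the latter from 98.4, 89.4 and 95.1 to 127, 118 and 109 CPM. Of the transcripts of Uqcr10 and Uqcrb 34.9% and 39.8% match another gene or pseudogene, and the counts of those other genes were under 1% of their own. Complex IV had 7 higher genes of 13, namely Cox6b2 (1.10), Cox6a1 (0.58), Cox6b1 (0.53), Cox5a (0.51), Cox4i1 (0.33), Ndufa4 (0.31) and Cox7b (0.31). In these, Cox6a1 measured 166, 154 and 148 CPM with Fgf2/Activin and 259, 227 and 217 with 2i, and Cox6b1 114, 109 and 105 against 165, 161 and 149 CPM. Cox4i1 went from 260.1, 235 and 242 to 308, 316 and 301 CPM, Ndufa4 from 136, 137 and 136 to 176, 172 and 161 CPM and Cox7b from 135, 123 and 124 to 170.0, 154 and 149.6 CPM. None of the 5 genes overlapped between the groups. Complex V also had 7, from all parts of the enzyme: the catalytic Atp5b (0.28), the central stalk Atp5c1 (0.36), the peripheral stalk genes Atp5j (0.48) and Atp5o (0.36), the membrane part Atp5j2 (0.37) and Atp5mpl (0.36), and Atp5g3 (0.27), 1 of 3 genes for the c-ring. Atp5b went from 1876, 1916 and 1878 to 2406, 2280.2 and 2179 CPM, Atp5j from 114, 108 and 105 to 156, 153 and 145 CPM, with no overlap, and Atp5g3 from 280.3, 303 and 311 to 346, 376 and 358 CPM. Among the factors rose Ndufaf5 (0.67), from 12.7, 13.5 and 13.2 to 23.9, 19.5 and 19.2 CPM, and Ndufaf4 (0.66), from 28.4, 39.4 and 41.2 to 55.5, 57.3 and 59.3 CPM. Of these calls, those of Atp5g3 and Ndufaf4 were lost when any 1 of the 6 libraries was left out, that of Cox7b with any but Fgf2/Activin replicate 1, that of Uqcr10 without 2i replicate 1 or 2 or Fgf2/Activin replicate 2 or 3, and those of Sdhc and Atp5c1 without 2i replicate 1 or Fgf2/Activin replicate 2 or 3.

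Of the 17 genes that were higher with CH than with DMSO, 16 were also higher with 2i than with Fgf2/Activin, which is 94.1% of the former and 45.7% of the latter. For all genes tested the same overlap was 73.8% and 56.7%. Cox7a2 is the exception, with a log2 fold change of 0.62 with CH and 0.14 ± 0.08 in 2i against Fgf2/Activin, where it measured 99.5, 94.3 and 101 CPM with Fgf2/Activin and 117, 105 and 101 with 2i. Its level with Fgf2/Activin lay above that with DMSO in every library.

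The remaining wild-type comparisons share libraries with those above. Adding the Mek inhibitor to CH (2i against CH) raised 1 gene, Cox5a, the subunit Va of complex IV, from 108, 101 and 103 CPM to 144, 132 and 131 (0.38 ± 0.07, edgeR adjusted p = 0.0063), and lowered none, beside 0.829% of all genes higher and 2.0% lower. The call was lost without any 1 of the 6 libraries, none of the 87 genes exceeded 2-fold (1.99% of all genes did), and 73 of the 87 log2 fold changes were positive, with a median of 0.11. For 33 of the 87 genes every 2i library lay above every CH library, and for 1 below, beside 12.7% and 13.1% of all genes. With the block 8 genes were higher and none lower (4.0% and 5.17% of all genes), the added ones being Ndufb10, Sdhb, Cox6a1, Cox6b1, Cox7a1, Atp5o and Atp5g1, and without the replicate 1 libraries 20 were higher and 1 lower (8.99% and 8.69%). Fgf2/Activin against DMSO gave no call in either direction by edgeR's quasi-likelihood test (13 genes at an unadjusted p below 0.05, and 2 calls by DESeq2), beside 1.18% of all genes higher, 0.615% lower and 1.25% called by more than 2-fold. Its median was -0.01, and 40 of the 87 changes were positive. With the block Uqcr10 (0.31), Cox7a2 (0.38) and Atp5g1 (0.24) were higher and none lower (3.49% and 3.13% of all genes). Tested over all 4 cultures at once, 35 of the 87 genes differed, beside 41.0% of all genes, a share no larger than that background. With the block 59 did, beside 60.2% of all genes.

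The Esrrb experiment asked what the loss of Esrrb did while Gsk3 was inhibited in both groups, and here part of the genes of every complex fell. Of the 87 genes 47 were lower in Esrrb null cells and 2 were higher (54.0% and 2.30%), against 19.9% and 24.6% of the 14893 genes tested. Among the 7297 genes with a mean of 20 CPM or more the lower genes were the larger share, 30.4% against 19.9% higher with a median of -0.091, and of the 80 respiratory chain genes in that range 47 were lower and 2 higher. No gene of the 87 changed by more than 2-fold, as 16.7% of all genes did. The median was -0.26 against 0.002 over all genes, 79 of the 87 log2 fold changes were negative, and for 63 genes every null library lay below every floxed library, as for 31.5% of all genes. The replicate block gave 64 lower and 2 higher (26.4% and 29.9% of all genes), and without the replicate 1 libraries these counts were again 64 and 2 (27.7% and 30.4%). Scaling by total counts in place of the trimmed mean moved the median of all genes by 0.11 and left 24 lower and 2 higher genes and a median of -0.15, with 13.7% of all genes lower and 29.6% higher. Without Esrrb null replicate 3 the main test called 21 genes in place of 49, and without Esrrb floxed replicate 3 it called 31. Among the 39 genes that share no exon or transcript stretch with another gene, 19 were lower and 1 was higher, with a median of -0.25.

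Complex V had the lowest median, -0.40, with 11 of 16 genes lower. Atp5g1, a gene for the c subunit that forms the proton-carrying ring, changed most of all 87 genes, from 142, 128 and 133 CPM to 75.2, 76.7 and 74.4 (-0.83 ± 0.05, edgeR adjusted p = 8.2e-06), with 3 null libraries that differed by less than 3 CPM. In the annotation Atp5g1 lies on GRCm38 chr11:96068852-96075670 (minus strand), and 17.7% of its transcript resembles other genes, whose counts together exceed its own. Atp5g3, which encodes the same mature c subunit and whose promoter carries the full receptor element shown above, went from 389, 360 and 372 to 279.7, 298 and 286 CPM (-0.38 ± 0.05, edgeR adjusted p = 0.00022). The groups did not overlap for either gene. Atp5b, the most abundant of the 87 genes, went from 2196, 2094 and 2108 to 1542, 1622 and 1555 CPM (-0.44 ± 0.05, edgeR adjusted p = 7.2e-05), and Atp5o, in the stalk that holds the catalytic head, by -0.55, although 47.9% of its exons overlap other annotated genes. Atp5c1, in the central stalk, had the smallest change among the called genes of the complex (-0.32), from 288, 245 and 261 to 219, 213 and 204 CPM, and lost its call without replicate 3 of either group. Atp5l, with the core of the element near its start, had a log2 fold change of -0.33 and passed only with the block (adjusted p = 0.032 without and 0.00018 with the block), at 83.6, 65.6 and 63.6 CPM in the floxed and 62.4, 53.9 and 53.5 in the null libraries.

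**Figure D3:**
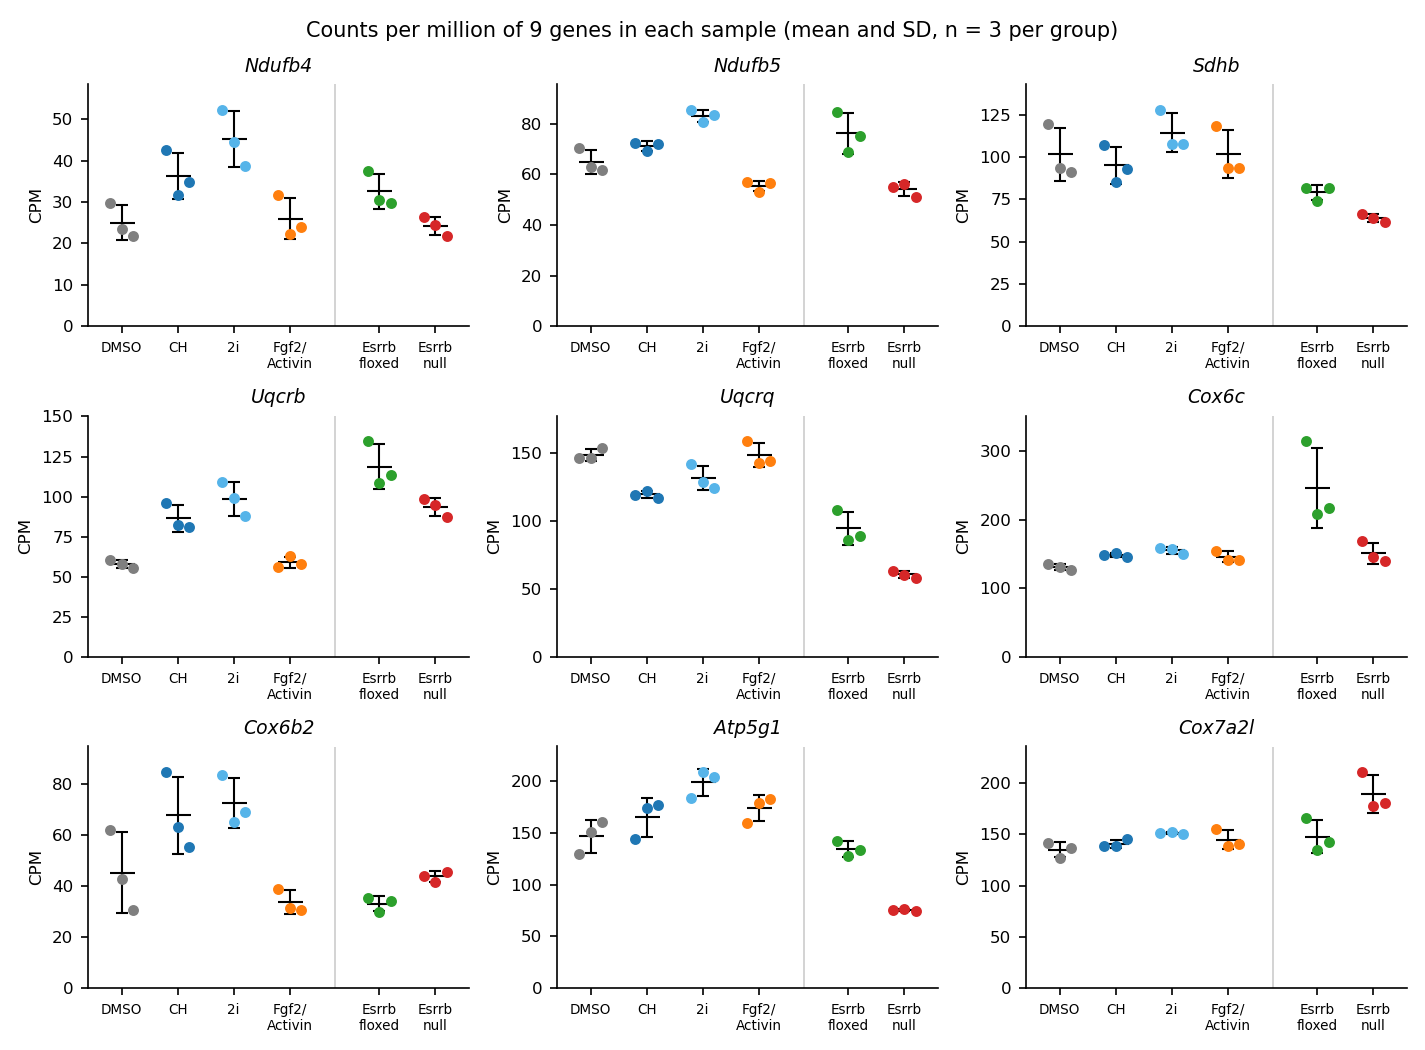
CPM (vertical axes, from 0) of 9 genes in each of the 18 libraries, with the mean and SD of each group (n = 3); a vertical line parts the wild-type from the Esrrb experiment. Atp5g1, Uqcrq, Ndufb5 and Sdhb are lower in all null than in all floxed libraries, Cox6b2 and Cox7a2l are higher, and the Esrrb floxed replicate 1 library stands alone for Cox6c at 313 CPM.

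In complex III 7 of 8 genes fell, with a median of -0.38. Uqcrq, already lower with CH than with DMSO in the wild-type cells, went from 108, 86.1 and 89.2 to 63.4, 60.5 and 58.3 CPM (-0.64 ± 0.09, edgeR adjusted p = 0.00034). Uqcr10 changed by -0.59, Uqcrc1 by -0.47, Uqcr11 by -0.42, Uqcrb by -0.34, Uqcrc2 by -0.26 and Uqcrfs1, the Rieske iron-sulphur protein, by -0.22, so both the core proteins and the small subunits were among them. Uqcr10 went from 126, 99.6 and 103 to 79.3, 71.0 and 68.1 CPM and Uqcrfs1 from 103, 101 and 103 to 84.6, 89.1 and 89.3 CPM, neither with overlap. The call of Uqcrfs1 was lost without null replicate 2 or 3 or floxed replicate 2 or 3, the call of Uqcrb without null replicate 2 or 3 or floxed replicate 1 or 3, and Uqcrh, at -0.21, passed only with the block (adjusted p = 0.0044). Complex IV had 6 lower genes and 1 higher gene of 13. Cox6c, an accessory subunit, measured 313, 208 and 217 CPM in the floxed and 169, 145 and 139.7 in the null libraries (-0.70 ± 0.15, edgeR adjusted p = 0.0035). The first of these floxed libraries is also the one in which the mitochondrial genes took 2.95% of all counts, against 1.83% and 1.85% in the other floxed and 1.88% to 2.47% in the null libraries, and without it the change of Cox6c was -0.49 and kept its call. Leaving out Esrrb null replicate 2 or 3 ended the call. Cox5a (-0.56), Cox6b1 (-0.48), Cox7c (-0.45), Cox8a (-0.29) and Cox5b (-0.24) also fell. Cox6b1 went from 208, 180.2 and 186 to 144, 139 and 127 CPM and Cox8a from 183, 163 and 168 to 146, 141 and 133 CPM, without overlap, and the call of Cox8a was lost without null replicate 3.

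Complex I had 20 lower and no higher genes of 36, with a median of -0.26. Ndufb5 went from 84.8, 68.8 and 75.2 to 55.1, 56.3 and 51.0 CPM (-0.49 ± 0.08, edgeR adjusted p = 0.00098), and Ndufs8 from 58.4, 60.1 and 58.0 to 42.6, 47.0 and 44.4 CPM (-0.40 ± 0.06, edgeR adjusted p = 0.00053). Both separated the groups in all libraries, and they are from different arms of the complex. For Ndufb5 the exon overlap with Mrpl47 given above applies here too. The others reach from -0.48 (Ndufa5) to -0.20 (Ndufa9 and Ndufa10), Ndufa9 at 107, 109.9 and 109 CPM in the floxed and 91.7, 98.5 and 94.2 in the null libraries and Ndufa10 at 133, 133 and 137 against 112, 120.2 and 117. Ndufa9 and Ndufa10 both lost the call without null replicate 1 or 3 or floxed replicate 2 or 3, Ndufb4 without any library but null replicate 1, and Ndufs6 without null replicate 3. Core subunits such as Ndufv1, Ndufs1 and Ndufs7 were at -0.26, -0.26 and -0.34. Ndufs5, whose promoter holds the core of the receptor element, went from 40.0, 37.4 and 40.5 to 29.8, 28.9 and 31.2 CPM (-0.39 ± 0.07, edgeR adjusted p = 0.0011), whereas Ndufb2, which also holds it, had -0.26 ± 0.14 and did not pass (edgeR adjusted p = 0.14). In complex II, Sdhb fell by 0.30 on the log2 scale, from 81.7, 74.0 and 81.6 to 66.6, 64.1 and 61.8 CPM, and Sdhc by 0.22, from 105, 98.8 and 104 to 83.6, 91.0 and 88.1 CPM, calls that were lost without replicate 3 of either group and, for Sdhc, without any library but null replicate 2. Sdha stayed at 342, 333 and 335 CPM in the floxed against 321, 324 and 319 CPM in the null libraries (-0.07 ± 0.04, edgeR adjusted p = 0.17), a difference that did not pass although the libraries did not overlap. Sdhd, which like Atp5g3 holds the full receptor element, was at -0.17 ± 0.05 and did not pass (edgeR adjusted p = 0.024). Whether the element had a part in any of these changes was not tested.

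Of the 10 assembly and other factors 1 was lower and 1 higher, with a median of -0.10; whether they differ from the subunits was not tested. Ndufaf2, a complex I assembly factor, fell by 0.41 on the log2 scale, from 24.9, 23.3 and 23.0 to 17.7, 18.6 and 17.1 CPM, and lost its call without null replicate 3. However, 65.7% of its exons overlap the gene B230220B15Rik and its value is uncertain. Cox7a2l was at 165, 135 and 142 CPM in the floxed and 210, 177 and 180 in the null libraries (0.36 ± 0.09, edgeR adjusted p = 0.0082), so each null library lay above the floxed ones. Its call was lost without Esrrb floxed replicate 2 or 3 or without any of the null libraries. The other gene that rose was Cox6b2, the testis form of subunit VIb, with 35.3, 29.7 and 34.0 CPM in the floxed and 43.9, 41.7 and 45.7 in the null libraries (0.41 ± 0.08, edgeR adjusted p = 0.0024). Its call was lost without Esrrb floxed replicate 2 or null replicate 3.

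The genes lower in Esrrb null cells overlapped in part with those higher in the naive cultures, from which no library is shared. Of the 35 genes higher with 2i than with Fgf2/Activin, 22 were lower in Esrrb null cells, 62.9% of the former and 46.8% of the 47 latter, and for all genes tested in both the shares were 29.7% and 27.9%. Of the 17 higher with CH than with DMSO 8 were (47.1% and 17.0%, against 27.9% and 20.2% for all genes). Of all 87 respiratory chain genes, 54.0% were lower in null cells, 40.2% higher with 2i and 19.5% higher with CH. Beside those shares the overlap was somewhat larger for 2i and somewhat smaller for CH, and the difference was not tested. Atp5g1, Uqcrq and Cox6c, the genes with the largest drops in the null cells, were in neither set of higher genes. Atp5g1 was at 0.17 ± 0.10 with CH and 0.19 ± 0.10 with 2i, and passed only with the block in the latter (adjusted p = 0.0041).

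Paralogous subunits were compared as the log2 ratio of their counts with a pseudocount of 0.5, for the 6 wild-type libraries with CHIR99021 (CH and 2i) against the 6 without it (DMSO and Fgf2/Activin), by a two-sided exact permutation test, adjusted by Benjamini-Hochberg over the 5 pairs with enough counts. Each side pools groups that also differ in the Mek inhibitor or in the added ligands, and the test took no account of the replicate number. The main form dominated in every pair of subunits. Per transcript length Cox6b2 was 25.5 ± 8.48% of Cox6b1 with DMSO, 32.1 ± 5.69% with CH, 29.1 ± 3.29% with 2i and 19.6 ± 1.88% with Fgf2/Activin (SD, n = 3). The log2 ratio was higher by 0.47 with CHIR99021 (exact permutation p = 0.028, adjusted 0.035), but the libraries overlapped and the DMSO libraries spread widely. Without DMSO replicate 3, CH replicate 1 or any 1 of the Fgf2/Activin libraries the exact permutation p was 0.052 to 0.056, above the threshold of 0.05. Cox6b2 itself measured 62.0, 42.9 and 30.6 CPM with DMSO, 84.5, 63.2 and 55.4 with CH, 83.4, 64.9 and 68.9 with 2i and 39.0, 31.6 and 30.5 with Fgf2/Activin. Between 2i and Fgf2/Activin it changed by 1.10 ± 0.24 (edgeR adjusted p = 0.0025), the only one of the 87 genes past 2-fold in any comparison, and that call was lost without 2i replicate 1 or Fgf2/Activin replicate 2 or 3. In the Esrrb experiment Cox6b2 made up 11.0 ± 0.58% of Cox6b1 in the floxed and 20.5 ± 2.15% in the null libraries, a rise of 0.89 in the log2 ratio with no overlap, where 3 against 3 libraries cannot give an exact p below 0.1. Both genes moved there, Cox6b2 up and Cox6b1 down.

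**Figure D4:**
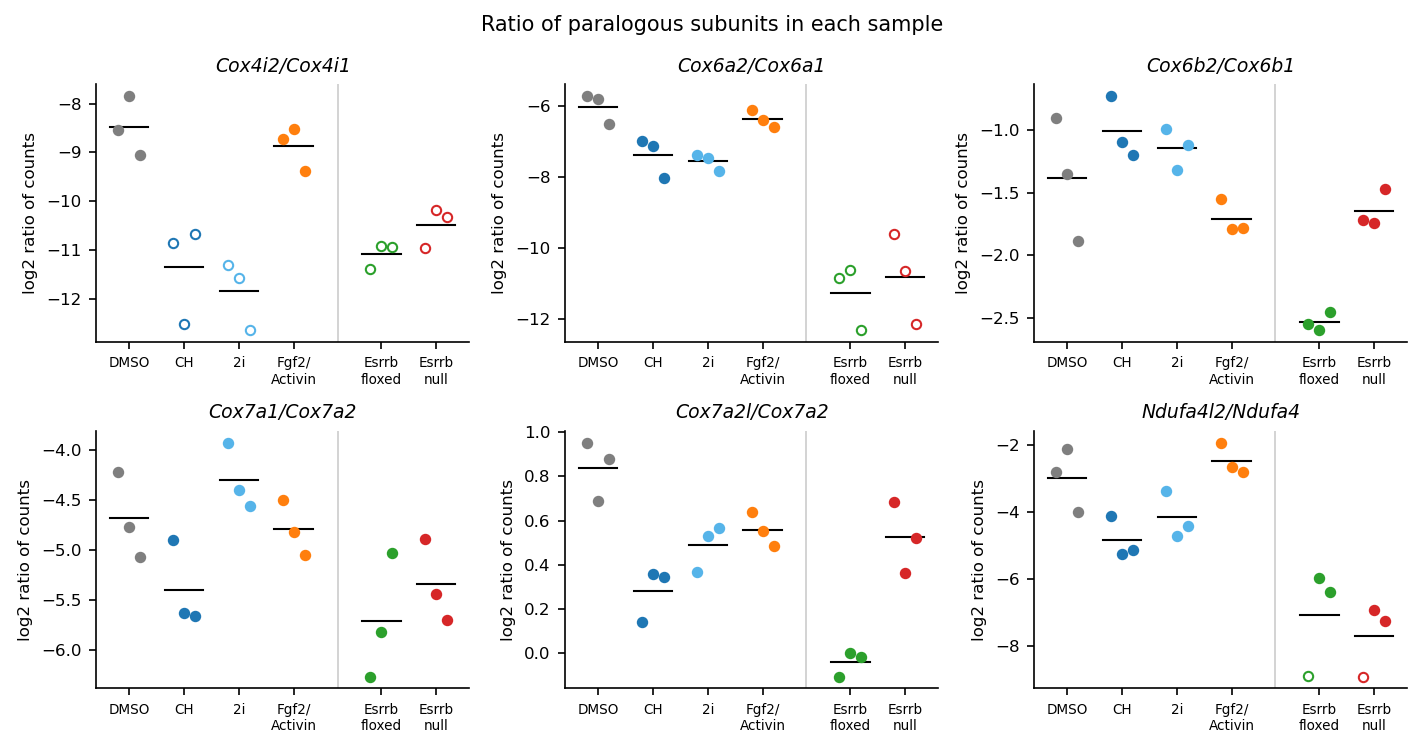
log2 ratio of the counts of paralogous genes (vertical axes) in each of the 18 libraries, with a bar at the group mean; open points have fewer than 10 counts of the first gene, and a vertical line parts the wild-type from the Esrrb experiment. The group means of Cox4i2, Cox6a2 and Ndufa4l2 relative to their partners lie lower with CH and 2i than with DMSO and Fgf2/Activin, and that of Cox6b2 to Cox6b1 is higher in Esrrb null than in floxed cells (-1.64 against -2.54).

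Cox6a2, the heart and muscle form of subunit VIa, was 1.64 ± 0.45% of Cox6a1 per length with DMSO and 1.26 ± 0.21% with Fgf2/Activin, and 0.64 ± 0.23% with CH and 0.55 ± 0.087% with 2i. The log2 ratio was lower by 1.29 with CHIR99021 and the 12 libraries did not overlap (exact permutation p = 0.0022, adjusted 0.011), from 17 to 128 counts of Cox6a2 per library. Ndufa4l2, a paralogue of Ndufa4 known to be induced under low oxygen, was counted 723, 1004 and 230 times with DMSO, 284, 124 and 113 with CH, 487, 222 and 238 with 2i and 1177, 654 and 551 with Fgf2/Activin. Its ratio to Ndufa4 was lower by 1.77 with CHIR99021 (exact permutation p = 0.0043, adjusted 0.011), with some overlap. Cox4i2, the form of subunit IV that is also linked to low oxygen, had 10 to 33 counts in the libraries without and 1 to 4 in those with CHIR99021, at under 1% of Cox4i1 throughout. It passed the low-count filter through the groups in which it was higher, so no test of it is given. A fitted fold change at such counts depends on the prior count and is not given either. The 3 lower paralogues were thus minor forms in every wild-type group. In the Esrrb experiment Cox6a2 had 0 to 3 counts, Cox4i2 4 to 8 and Ndufa4l2 7 to 53. Cox7b2 (2 to 18 counts over all 18 libraries), Cox8b (0 to 6) and Cox8c (0 to 5) were near the detection limit in every group.

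For subunit VIIa the muscle form Cox7a1 was 4.30 ± 1.39% to 9.12 ± 2.18% of Cox7a2 per length in the wild-type groups, at 2.16 to 7.70 CPM over the 12 libraries, and its ratio differed by -0.11 with CHIR99021 (exact permutation p = 0.73). Within pairs of groups it went both ways, with -5.40 with CH against -4.68 with DMSO and -4.30 with 2i against -4.79 with Fgf2/Activin on the log2 scale. Cox7a2l, which resembles Cox7a2, was at 115 ± 10.5% of it with DMSO, 77.8 ± 6.44% with CH, 89.7 ± 6.43% with 2i and 94.1 ± 5.13% with Fgf2/Activin. The ratio was lower by 0.31 with CHIR99021 (exact permutation p = 0.011, adjusted 0.018), of which the CH and DMSO libraries gave -0.56 and the 2i and Fgf2/Activin libraries -0.07. It was the denominator Cox7a2 that changed there, as Cox7a2l had a log2 fold change of 0.06 in both. In Esrrb null cells the ratio went from 62.1 ± 2.40% to 92.2 ± 10.2%, with Cox7a2l higher and Cox7a2 at -0.21 ± 0.10 (edgeR adjusted p = 0.087). The c-ring genes, a family added after the data were seen, showed no CHIR99021 difference between Atp5g1 and Atp5g3 (-0.006, exact permutation p = 0.93), while in the Esrrb experiment Atp5g1 went from 16.0 ± 0.25% to 11.6 ± 0.27% of Atp5g3 per length, without overlap between the groups.

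Related genes outside the symbol rule were counted from lists, to be read beside the shares of all genes given above, in Esrrb null cells 19.9% lower, or 30.4% of the genes at 20 CPM or more. Of 12 mitochondrially encoded subunits tested, mt-Co2 alone was higher with CH (1.38), mt-Nd5, mt-Nd6 and mt-Co1 were higher with 2i (0.44, 0.49 and 0.49), and none passed in Esrrb null cells, where the median was -0.18. The call of mt-Co2 rests on 62 to 92 counts with DMSO and 147 to 228 with CH, beside 106888 to 209631 for mt-Co1 in the same libraries. The polyadenylated transcripts selected for these libraries do not represent mitochondrial RNA evenly. Of 5 nuclear genes for other subunits and carriers, 3 fell in Esrrb null cells, cytochrome c1 (Cyc1, -0.46), cytochrome c (Cycs, -0.45) and the ATP synthase inhibitor Atpif1 (-0.63), and 1 rose with CH, the small ATP synthase subunit gene Usmg5 (0.36). Of 39 further assembly factors 1 rose and 2 fell with CH, 3 rose and 2 fell with 2i, and 9 fell and none rose in Esrrb null cells, among them the copper chaperone Cox17 (-0.54), which rose with 2i (1.04). Of 17 genes of the tricarboxylic acid cycle and pyruvate dehydrogenase, 1 rose and 3 fell with CH, 4 rose and 2 fell with 2i, and 2 rose and 7 fell in Esrrb null cells, with citrate synthase (Cs) lower with CH (-0.27) and in null cells (-0.26).

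Among 15 regulators of mitochondrial genes, 9 were lower and none higher in Esrrb null cells, 1 of the 9 being the deleted gene Esrrb itself. Another was Lin28a, which is also listed among the pluripotency markers. The others included Tfam, which packages and transcribes mitochondrial DNA (-0.36), the transcription factors Gabpa (-0.27) and Nrf1 (-0.22), the coactivator Pprc1 (-0.32) and the mitochondrial transcription factors Tfb1m (-0.66) and Tfb2m (-0.40). With CH 4 were higher and 2 lower, and with 2i against Fgf2/Activin 3 were higher and 1 lower. Esrrb, which is also listed as a marker of the naive state, was among the higher genes in both comparisons. Gabpa rose in both (0.35 and 0.47), while Tfam and Nrf1 passed in neither. Esrra, the receptor of the same family best known in mitochondrial control, did not pass the test in Esrrb null cells (0.01 ± 0.09, edgeR adjusted p = 0.93).

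Cell state markers moved in the same comparisons. All 6 naive markers were higher with CH and with 2i, their sum being 36.9 to 159 CPM with DMSO, 60.0 to 120.2 with Fgf2/Activin, 1068 to 1326 with CH and 1845 to 2179 with 2i. In Esrrb null cells 5 of 6 were lower (328 to 355 against 649 to 848 CPM), and so were 6 of 6 general pluripotency markers (1769 to 1887 against 2780 to 2947 CPM), while 2 of 3 primitive streak markers tested, T and Mixl1, were higher. The 4 listed streak markers summed to 336 to 489 CPM in null and 52.8 to 76.0 in floxed cells, 441 to 671 with CH, 83.4 to 118 with 2i and 8.86 to 17.5 with DMSO or Fgf2/Activin. The 4 formative or primed markers, all lower with CH and 2i, summed to 2341 to 3676 CPM with DMSO, 2862 to 3462 with Fgf2/Activin, 474 to 868 with CH and 305 to 440 with 2i. In the Esrrb experiment these 4 summed to 532 to 800 CPM in null and 968 to 1280 in floxed cells, Otx2 and Dnmt3b being lower and Fgf5 higher in null cells. Of 3 primitive endoderm markers tested 2 were higher and 1 lower there, the 5 listed summing to 3.796 to 5.50 CPM against 1.74 to 3.08. Both neural markers tested were lower (5.596 to 7.64 against 15.3 to 26.2 CPM for the list), and of 2 feeder markers Col1a2 was higher and Thy1 lower (8.32 to 11.2 against 18.3 to 26.4 CPM). Trophectoderm markers summed to 40.5 to 53.6 CPM in null and 44.6 to 47.9 in floxed cells, with 1 of 3 higher, and to 73.7 to 117 CPM with CH, 35.9 to 55.4 with 2i, 15.7 to 18.7 with DMSO and 12.0 to 17.9 with Fgf2/Activin, 2 of 3 being higher and 1 lower both with CH and with 2i. Of all the listed markers only the feeder gene Lum was at 0 in all libraries of a group, that with DMSO. The part of cell state in the changes of the respiratory chain genes was not tested.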

How the data were processed

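PolyA-selected RNA was made into libraries with a directional kit and sequenced in 18 samples. Per the labels and the study's methods, the authors used TopHat2 to map reads to mm10 and HTSeq, in its unstranded mode, to count reads per Ensembl gene of GRCm38. The deposited table holds these counts as whole numbers with no normalisation or filter. In unstranded counting, reads over exons shared by overlapping or antisense genes cannot be told apart by strand. How such reads were handled is not given in the sources used here. The Ensembl release is not given in the sources used here, and symbols, gene types, coordinates and exon lengths were taken from GENCODE M21 (GRCm38), which held 49412 of the 49671 identifiers.

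Groups and replicate numbers were read from the sample titles. The titles do not say whether replicates are separate cultures, so p-values measure the spread between these samples, which may be technical. Genes with low counts were removed by filterByExpr, libraries were scaled by TMM, and edgeR 4.0.16 (glmQLFit and glmQLFTest; R 4.3.3) was fitted without a block to the 12 wild-type samples together, as 4 groups, and to the 6 Esrrb samples, with Benjamini-Hochberg adjustment over all genes and a threshold of 0.01. The study's rule adds a log2 fold change above 1. All 87 genes passed the low-count filter. CPM were computed with a TMM scaling within each experiment, and RPKM with a common TMM scaling of all 18 libraries. CPM of the wild-type and the Esrrb experiment are therefore not on the same scale. Paralogue ratios were tested by exact permutation (scipy 1.17.1) at 0.05. Transcripts were compared with each other by blastn (2.17.0, 75 bases at 95% identity or more) to find shared stretches. Same-numbered samples deviated together from their group means (correlation 0.36 to 0.81 in all 18 wild-type pairs over 12935 genes, 0.24 to 0.50 in the 3 Esrrb pairs), so fits with the number as a block are given beside results they change. Alternatives were DESeq2 1.42.0, other scalings and filters, fits of the compared samples only, and leaving out samples.

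Values in every sample, or their range, are given for genes past 2-fold, for the largest and smallest change among the called genes of each complex, for paralogue pairs and for the highest and lowest gene of a complex by RPKM, each in the comparisons where it is described, and in addition for Ndufa12, Cox5a and Ndufs5, chosen after their values were seen. Other genes are named by their fold changes. The genes, lists and pairs were chosen with earlier results of these data known. The fit was tested on simulated data that had the same dispersion for all genes and no shared deviation of same-numbered samples. At a log2 fold change of 0.5 it recovered 39.4% of the changed genes for CH against DMSO. For the Esrrb comparison it recovered 37.9%, so a gene without a call is not thereby shown to be unchanged. Libraries held 25388139 to 37158661 counts in the wild-type and 19915222 to 20140699 in the Esrrb experiment. The promoter sequences are RefSeq's. Protein sequences were not used here.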

Additional observations from a re-analysis of the deposited data

How the results depend on the processing

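The number of called genes depended on the settings more than their direction did, and the cause was not tested. For CH against DMSO, 19 calls became 12 with no low-count filter, with total counts or with upper-quartile scaling, 4 with only the 6 samples compared, 0 with the study's minimum fold, 35 with the replicate block, which uses the pairing of the samples, 39 without replicate 1 of every group (chosen after seeing the data) and 8 to 13 with 1 library left out. The 36 of 2i against Fgf2/Activin became 22 with upper-quartile scaling (median 0.14), 1 with the minimum fold, 56 without replicate 1 of every group and 19 to 31 with 1 library left out. The 1 call of 2i against CH became 8 with DESeq2 or the block and 21 without replicate 1 of every group, and 0 with each of no filter, only the 6 samples compared, total counts, upper quartile, the minimum fold and any library left out. The 0 of Fgf2/Activin against DMSO became 2 with DESeq2 and 3 with the block or without replicate 1 of every group. The 49 of the Esrrb comparison became 26 with total counts (median -0.15), 0 with the minimum fold and 21 to 47 with 1 library left out. The 35 genes differing among the 4 cultures became 59 with the block and 64 without replicate 1 of every group.

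Restricted to CH against DMSO and to 2i against Fgf2/Activin, where the smallest exact p is 0.1, the log2 ratio differences were -1.37 and -1.21 for Cox6a2 to Cox6a1, 0.37 and 0.57 for Cox6b2 to Cox6b1, -0.56 and -0.070 for Cox7a2l to Cox7a2 and -1.85 and -1.69 for Ndufa4l2 to Ndufa4, and that of Cox7a1 to Cox7a2 turned to 0.49 in the latter. With 1 library left out the difference of Cox6b2 to Cox6b1 ranged from 0.40 to 0.60 and that of Cox7a1 to Cox7a2 from -0.29 to 0.05, turning to 0.047 without CH replicate 2 and to 0.052 without CH replicate 3.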
